A study of Mus musculus with 2 samples.

Results

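The genes described here are the orphan and adhesion G protein-coupled receptors of mouse islet cells, taken as every gene listed for both libraries whose symbol is Gpr followed by a number and at most 1 letter, or begins with Adgr, with Gpr119 left out. There were 86 such genes among 33038 genes listed for either library, 26 of them adhesion receptors (Adgr) and 60 named Gpr. The set was drawn by symbol alone, so "receptor gene" below means a member of it, not a shown receptor function. It includes Gpr89, Gpr107, Gpr108, Gpr137b and Gpr155, which are described below as proteins of the Golgi or lysosome. The data are single-cell transcriptomes from RevGel-seq, in which each cell is tied to a barcoded bead inside a hydrogel that can be melted again. Islets of C57BL/6J mice aged 8 weeks, a single control group with no other genotype or treatment, were dissociated, and 2 libraries of 10000 input cells each were made as technical replicates of 1 islet preparation. Library 1 held 735 cells with 15931154 transcripts counted by unique molecular identifiers (UMIs), library 2 held 748 cells with 17440292, and they shared 0 barcodes. Every SD and p-value below therefore measures the spread between 2 technical libraries and not between animals.

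G protein-coupled receptors span the membrane several times and pass signals from outside the cell to G proteins and arrestins. Adhesion receptors carry long extracellular domains that bind proteins on neighbouring cells or in the matrix, and many cut themselves into a pair of fragments, the membrane part being activated by a tethered peptide. Orphan receptors are those named before a ligand was known, and several Gpr names now have one. In islets, other receptors of this superfamily are known to tune hormone release.

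Cells were grouped by the hormones that reached 1% of their UMIs, with Ins1 and Ins2 added as insulin. In library 1 and library 2 this gave 182 and 190 cells with insulin only, 182 and 174 with Gcg only, 35 and 23 with Sst only, 54 and 68 with Ppy only, 65 and 86 with Gcg and Ppy, 77 and 71 with Sst and Ppy, and 91 and 92 with no hormone. These groups were compared. A further 37 and 27 cells held insulin with another hormone, and 12 and 17 held Gcg and Sst. Levels are CPM, UMIs scaled to a common library total that leaves out the 5 hormone genes. They are given for library 1 and then library 2, and serve to compare groups for 1 gene, not genes with each other. The summed level of 6 beta cell markers was 53974 and 55541 CPM in insulin only cells and 750.4 and 575 in Gcg only cells, where the 6 alpha cell markers reached 46903 and 48498. Sst only cells held 6860.5 and 6802 CPM of 4 delta cell markers, but also 15094 and 15387 of the beta list, of which Iapp, an amyloid peptide, made up 15053 and 15357. Of the 2 gamma cell markers beside Ppy, Pyy was at 53889 and 41295 CPM in Ppy only cells and Aqp3 at 0 and 0. Pyy was not confined to them. These 2 markers summed to 12679 and 13017 CPM in Sst only cells, and Pyy was at 6282 and 5981 in Gcg only cells. Ppy only cells also held 4614 and 2011 CPM of the beta list.

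Hormone-free cells were a mixture. By marker UMIs, 60 of the 183 were endothelial-like, 28 B cell-like, 17 T cell-like, 20 macrophage-like, 20 ductal-like and 9 mesenchymal-like, and 27 were not placed. The remaining 2 cells, both in library 2, were set apart by a marker list whose name their leading genes went against. Nos1, Vip, Prph, Nefl, Slc5a7 and Slc18a3, genes known from autonomic neurons, were among the genes that led them, with 1063 UMIs of Nos1 in these 2 cells and 16 in all other cells. They were left unnamed. They held 177513 and 96154 UMIs, while the median hormone-free cell of library 2 had 15014.5, and the results that rest on them are given with and without them.

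A UMI was found for 83 of the 86 receptor genes in library 1 and for 86 in library 2. Together they took 15167 and 16614 UMIs, 0.129% and 0.130% of UMIs other than the hormones. The counts were uneven: 8 genes reached 1000 UMIs over both libraries, 41 reached 100, and 14 stayed under 10. Adgrl1, a latrophilin that binds teneurins, had 4379 UMIs in 1122 cells, Adgrg1, also called Gpr56, had 3208 in 1110 cells, and Adgrf5 had 3043 in 362 cells. Summed over the 86 genes, the level was 1278 ± 65.6 CPM in insulin only cells, 1013 ± 27.6 in Gcg only, 1348 ± 23.9 in Sst only, 1093 ± 1.90 in Ppy only and 2035 ± 105 in hormone-free cells (SD, n = 2 libraries each). The adhesion receptors summed to 1400.2 ± 120.2 CPM in hormone-free cells against 419 ± 20.5 in Gcg only and 722 ± 45.4 in Sst only cells, the lowest and highest of the single-hormone groups. Most of this hormone-free sum came from Adgrf5 and Adgrl4, whose UMIs there lay almost wholly in endothelial-like cells, as given below. Both genes are also part of the sum over the 86 genes, so neither sum shows a rise across the family. The Gpr genes were at 635 ± 15.01 CPM in hormone-free cells, within the range of 594 ± 7.06 in Gcg only to 818 ± 20.6 in insulin only cells.

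Counts were summed per group and library and fitted together with edgeR's quasi-likelihood method over 14955 genes, with Benjamini-Hochberg adjustment over all of them and a threshold of 0.05. A value with an SE and an adjusted p below is the log2 fold change of that fit. Of the 86 receptor genes, 48 passed the filter on low counts and 38 did not. Some of the 48 passed only through the group in which they were high, so the counts below are a description. Among the 4 single-hormone groups and the hormone-free cells, 41 of the 48 differed by the F test, where 66.5% of all genes did. Between pairs of single-hormone groups fewer receptor genes were called: 12 for insulin against Gcg (25% of all genes), 8 higher and 4 lower in the first (background 12.8% and 12.2%), 11 for insulin against Ppy (20.2% of all genes), 7 higher and 4 lower in the first (background 10.3% and 9.87%), and 8 for insulin against Sst (14.5% of all genes), 5 higher and 3 lower in the first (background 7.48% and 6.97%). There were 6 for Sst against Ppy (9.08% of all genes), 4 higher and 2 lower in the first (background 4.67% and 4.41%), 5 for Gcg against Ppy (9.49% of all genes), 2 higher and 3 lower in the first (background 4.72% and 4.77%), and 3 for Gcg against Sst (12.3% of all genes), 1 higher and 2 lower in the first (background 6.01% and 6.31%). Under scaling by relative log expression, and with the library as a term, Gcg against Sst became 0 higher and 3 lower and Sst against Ppy 4 higher and 1 lower. With DESeq2, insulin against Sst became 3 and 3, insulin against Ppy 6 and 1, Gcg against Sst 0 and 2, Gcg against Ppy 2 and 1, and Sst against Ppy 4 and 1. Hormone-free cells differed from the mean of the 4 single-hormone groups in 38 of the 48 (background 59.7%), 21 higher and 17 lower (33.4% and 26.3%). The median log2 fold change of the tested receptor genes was 0.06 for insulin against Gcg and 0.01 for hormone-free against the hormone groups, beside 0 and 0.05 over all genes.

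Insulin cells stood apart in a pair of receptor genes, Gpr45 and Gpr158, and less steeply in Gpr137b and Adgrv1. Gpr45 is an orphan of the rhodopsin class (chromosome 1 at 42952872-43035456, plus strand, GRCm38). It was measured at 176 and 161 CPM in insulin only cells. In the others it was at 10.3 and 14.9 with Gcg only, 10.8 and 15.3 with Gcg and Ppy, 19.8 and 20.5 with Ppy only, 22.0 and 16.8 with Sst only, 46.5 and 38.4 with Sst and Ppy, and 0.629 and 10.2 in hormone-free cells. Both libraries of insulin only cells were above every other sum. The log2 fold change was 3.77 (SE 0.34, adjusted p = 1.04e-06) against Gcg only cells, 3.24 (SE 0.46, adjusted p = 0.000176) against Sst only and 3.11 (SE 0.35, adjusted p = 1.27e-05) against Ppy only. Of the 23 hormone-free UMIs of Gpr45, 19 lay in the 2 cells led by Nos1 and Vip.

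Gpr158, a class C receptor of the brain (chromosome 2 at 21367542-21830547, plus strand), was at 62.4 and 64.0 CPM in insulin only cells. No sum of the other groups compared was above 7.88 CPM. In cells with Gcg and Ppy it had 0 UMIs in both libraries. Insulin only cells were at least 53.7-fold higher, taking 3 counts over the group as the floor and the insulin only level as observed. The log2 fold change of insulin only cells was 5.08 (SE 0.72, adjusted p = 0.000115) against Gcg only and 5.16 (SE 0.82, adjusted p = 0.000424) against Ppy only. Against Sst only cells, which held 2 UMIs, the ratio was 23.8 with an exact 95% counting interval of 6.53 to 197, and the edgeR adjusted p was 0.0084. Library 2 held the 17 UMIs found in hormone-free cells, 16 of them in the 2 cells led by Nos1 and Vip. An exon of Gpr158 overlaps the gene Gm13327 on the other strand, and reads of such a pair cannot be told apart if strand was not used in counting. Gpr158 is 1 of 28 of the 86 genes with an exon that overlaps another gene on either strand, so that their reads are uncertain. Among them are Adgre5 (with Ddx39), Gpr137 (with Bad), Gpr137c (with Txndc16), Gpr155, Gpr19 and Gpr65.

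The bases before the start of Gpr45 and Gpr158, and of Adgrl4, which stood out in hormone-free cells, are printed to show what lies upstream of receptor genes that separate these groups. Each run is the 250 bases before the RefSeq start on GRCm38.p6, written 5′ to 3′ on the strand of the gene, which is the plus strand for each.
Gpr45: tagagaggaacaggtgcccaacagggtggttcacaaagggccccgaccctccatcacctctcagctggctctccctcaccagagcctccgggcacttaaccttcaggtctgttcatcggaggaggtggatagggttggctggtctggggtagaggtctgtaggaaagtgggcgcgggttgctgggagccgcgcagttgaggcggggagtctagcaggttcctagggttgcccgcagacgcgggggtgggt
Gpr158: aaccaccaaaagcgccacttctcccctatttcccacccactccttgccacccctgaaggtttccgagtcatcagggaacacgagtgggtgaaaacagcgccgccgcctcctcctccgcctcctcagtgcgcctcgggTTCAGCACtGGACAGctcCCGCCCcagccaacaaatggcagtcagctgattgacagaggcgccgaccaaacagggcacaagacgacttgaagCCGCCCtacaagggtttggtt
Adgrl4: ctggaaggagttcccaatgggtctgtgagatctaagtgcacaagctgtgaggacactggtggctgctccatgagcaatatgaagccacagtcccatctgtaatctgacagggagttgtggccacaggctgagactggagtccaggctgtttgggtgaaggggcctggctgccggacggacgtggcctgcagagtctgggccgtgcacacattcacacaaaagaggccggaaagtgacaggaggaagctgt
The positions are chr1:42952622-42952871 for Gpr45, chr2:21367317-21367566 for Gpr158 and chr3:151437632-151437881 for Adgrl4. Capitals mark matches on either strand to any of 5 motifs: the cyclic AMP response element (TGACGTCA), the GC box (GGGCGG), the TATA box (TATAAA), and the left (TTCAGCAC) and right (GGACAG) letters of the RE1 element, known as the site of the repressor REST. Gpr158 held 2 GC boxes and 1 match to each side of RE1, which stood 1 base apart. Gpr45 and Adgrl4 held 0 matches. Among 32851 RefSeq promoters of the same length the left letters were found in 0.962%, the right letters in 18.7%, the GC box in 32.7%, the TATA box in 12.4% and the cyclic AMP element in 1.55%. The RE1 letters were chosen for the search after the Gpr158 sequence had been seen, and binding was not tested. Promoters with both sides, and the spacing between the sides, were not counted. The pair in Gpr158 is therefore not taken as a whole RE1 element.

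By share of cells, Gpr45 had a UMI in 140 of 182 insulin only cells in library 1 and 129 of 190 in library 2 (76.9% and 67.9%), against 12.1% and 19.0% of Gcg only cells and 1.099% and 3.26% of hormone-free cells, which give the background. The median cell had 19642 and 17169.5 UMIs with insulin only, 16413.5 and 19534 with Gcg only, and 13195 and 15014.5 without a hormone. With each cell thinned to 4000 UMIs, the shares of Gpr45 with their 95% Clopper-Pearson intervals were 26.4% (20.1% to 33.4%) and 29.5% (23.1% to 36.5%) of insulin only cells, and 4.396% and 2.30% of Gcg only and 0% and 1.09% of hormone-free cells. For Gpr158 the thinned shares were 12.6% (8.18% to 18.4%) and 8.42% (4.89% to 13.3%) with insulin only, and at most 1.30% in any other group compared. Intervals cover counting error only. Cells with insulin and another hormone had Gpr45 in 62.2% and 77.8% and Gpr158 in 27.0% and 33.3% of cells.

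**Figure D1:**
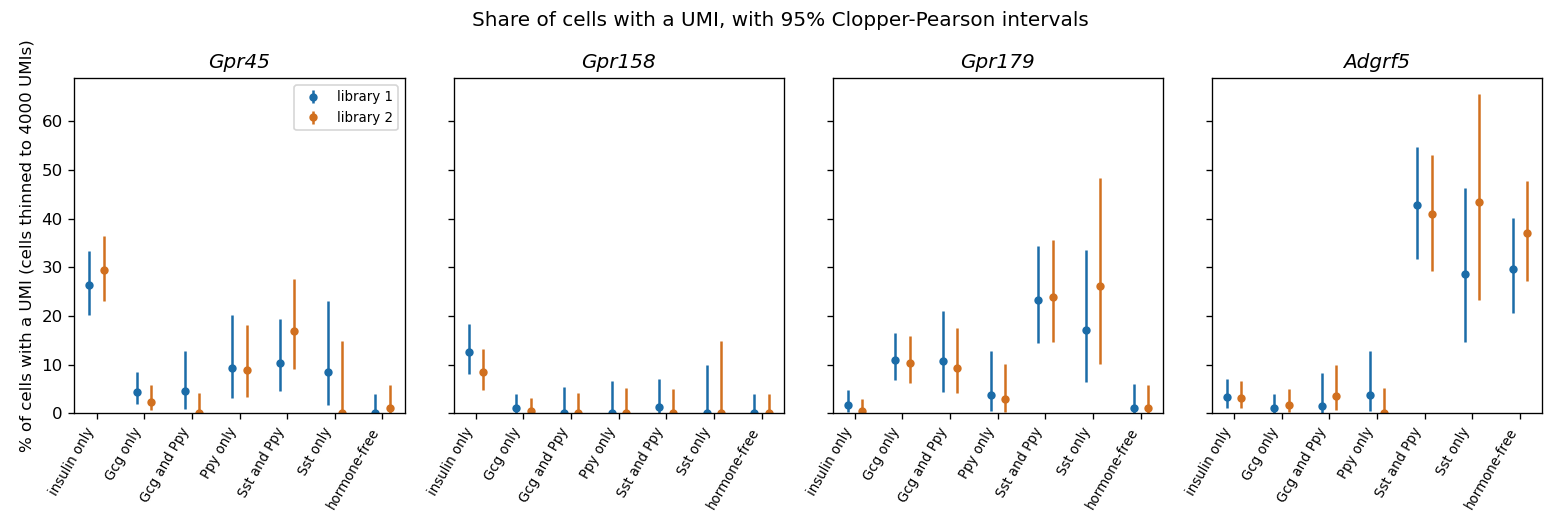
Share of cells with a UMI of 4 receptor genes after thinning each cell to 4000 UMIs, in percent (y axis), by hormone group (x axis) and library (colour); points are shares and bars are 95% Clopper-Pearson intervals. Gpr45 reached 26.4% and 29.5% of insulin only cells, and Adgrf5 42.9% and 40.8% of cells with Sst and Ppy.

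Gpr137b, a membrane protein of the lysosome, was at 50.6 and 47.6 CPM with insulin only, 23.996 and 29.0 with Gcg only, 18.0 and 16.4 with Ppy only, and 13.2 and 0 with Sst only. The insulin only sums were above all the others. The log2 fold change of insulin only cells was 0.92 (SE 0.29, adjusted p = 0.0274) against Gcg only, 1.57 (SE 0.33, adjusted p = 0.00286) against Ppy only and 2.79 (SE 0.52, adjusted p = 0.0019) against Sst only. Gcg only cells were above Sst only cells by 1.87 (SE 0.56, adjusted p = 0.0416), a call lost in 4 of 11 alternatives. Adgrv1, the very large adhesion receptor of hair cells and photoreceptors, was at 18.1 and 13.9 CPM with insulin only, 4.57 and 4.60 with Gcg only and 4.30 and 1.17 with Ppy only. Insulin only cells were higher than both, by 1.82 (SE 0.54, adjusted p = 0.0216) and 2.69 (SE 0.66, adjusted p = 0.00877) on the log2 scale. Sst only cells held 1 UMI of it, and the ratio of 12.2 had a counting interval of 2.12 to 486, a call lost in 3 of 11 alternatives.

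Insulin only cells were also higher than Gcg only cells in Gpr155, Gpr27 and Gpr108. Gpr155, a cholesterol sensor of the lysosome, was at 15.9 and 16.8 against 2.67 and 4.96 CPM (2.11, SE 0.43, adjusted p = 0.00189). Gpr27, an orphan of a small conserved brain family, was at 88.6 and 87.2 against 53.7 and 57.0 CPM (0.70, SE 0.19, adjusted p = 0.0118), and Gpr108, a Golgi protein, at 92.6 and 98.1 against 74.3 and 60.2 CPM (0.54, SE 0.17, adjusted p = 0.0299). The genes higher in Gcg only cells included Gpr179, Gpr137c and Gpr85. Gpr137c was at 2.58 and 4.63 CPM with insulin only and 15.2 and 22.3 with Gcg only (-2.34, SE 0.53, adjusted p = 0.00411). Gpr85, of the family of Gpr27, was at 20.7 and 15.6 CPM with insulin only and 32.4 and 35.1 with Gcg only (-0.85, SE 0.28, adjusted p = 0.0363), a call lost in 3 of 10 alternatives. Adgre1, the macrophage antigen F4/80, was called higher in insulin than in Gcg only cells at 0.369 and 5.05 against 0 and 0 CPM, but each library's UMIs lay in 1 cell.

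Gpr179, a class C relative of Gpr158 known from retinal bipolar cells (chromosome 11 at 97332109-97352077, minus strand), was low in insulin cells. It was at 6.64 and 9.69 CPM with insulin only, 15.5 and 13.5 with Ppy only, 39.2 and 46.7 with Gcg only, 51.1 and 42.4 with Gcg and Ppy, 68.1 and 60.3 with Sst only, 98.6 and 74.1 with Sst and Ppy, and 4.401 and 0.463 in hormone-free cells. The insulin only and Ppy only sums were below every sum with Gcg or Sst. Insulin only cells differed from Gcg only by -2.36 (SE 0.33, adjusted p = 7.92e-05) and from Sst only by -2.83 (SE 0.40, adjusted p = 0.000176) on the log2 scale. Gcg only cells were above Ppy only cells by 1.60 (SE 0.34, adjusted p = 0.00688), and Sst only cells by 2.06 (SE 0.40, adjusted p = 0.00371). The differences between insulin only and Ppy only cells (-0.76, adjusted p = 0.218) and between Gcg only and Sst only cells (-0.47, adjusted p = 0.44) did not pass the threshold.

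Among the groups with a hormone, cells with Sst stood apart in the adhesion receptors Adgrf5 and Adgrl2. Adgrf5, known from lung epithelium and endothelium (chromosome 17 at 43360451-43459557, plus strand), was at 189 and 161 CPM with Sst only and 197 and 153 with Sst and Ppy. It was at 33.2 and 16.4 CPM with insulin only, 5.33 and 19.8 with Gcg only, and 12.9 and 2.35 with Ppy only, so that both Sst groups were above these in both libraries. The log2 fold change was -2.65 (SE 0.43, adjusted p = 0.000554) for insulin against Sst, -3.66 (SE 0.46, adjusted p = 6.63e-05) for Gcg against Sst and 4.59 (SE 0.57, adjusted p = 7.47e-05) for Sst against Ppy. A UMI was present in 77.1% and 78.3% of Sst only cells and in 76.6% and 77.5% of cells with Sst and Ppy. After thinning to 4000 UMIs these shares were 28.6% and 43.5%, and 42.9% and 40.8%, against 1.099% and 1.72% of Gcg only cells.

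Adgrf5 was also high in endothelial-like cells, so endothelial RNA is given beside it. The 8 endothelial markers summed to 624 and 53.6 CPM in Sst only cells and to 361 and 63.1 in cells with Sst and Ppy, against 206 and 34.5 with insulin only and 72.8 and 258 with Gcg only. Adgrl4, whose hormone-free UMIs lay almost wholly in endothelial-like cells, was at 8.79 and 0 CPM in Sst only cells. The part of endothelial RNA in the level of Adgrf5 was not tested.

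Adgrl2, a latrophilin, was at 41.8 and 77.1 CPM with Sst only and 31.6 and 49.4 with Sst and Ppy, and between 0.762 and 5.16 in every sum with insulin only, Gcg only, Ppy only or Gcg and Ppy. Hormone-free cells were higher than all of these, mainly through endothelial-like cells, as given below. The part of endothelial RNA in the level of Adgrl2 was not tested either. The log2 fold change was -4.52 (SE 0.59, adjusted p = 8e-05) for insulin against Sst, -4.31 (SE 0.57, adjusted p = 9.45e-05) for Gcg against Sst and 3.52 (SE 0.58, adjusted p = 0.000995) for Sst against Ppy. Its relative Adgrl3 was low there, at 8.79 and 16.8 CPM with Sst only and 0 and 1.83 with Sst and Ppy against 36.9 and 45.5 with insulin only, and insulin only cells were above Sst only by 1.93 (SE 0.58, adjusted p = 0.0369). This call was lost in 2 of 11 alternatives, over which the value ran from 1.39 to 3.71. Adgrl1, the third of these latrophilins, was between 167 and 292 CPM in every sum with a hormone, and no pair of single-hormone groups passed the test. Adgrb3, a receptor of C1q-like proteins at synapses, was at 54.9 and 57.0 CPM with Sst only, 47.4 and 74.1 with Sst and Ppy, 23.3 and 27.8 with insulin only, 19.4 and 24.4 with Gcg only and 14.6 and 19.9 with Ppy only. Sst against Ppy was 1.56 (SE 0.43, adjusted p = 0.034), a call lost in 2 of 11 alternatives, while insulin against Sst (adjusted p = 0.124) and Gcg against Sst (adjusted p = 0.0607) did not pass. An exon of Adgrl1, Adgrl2 and Adgrl3 each overlaps a predicted gene on the other strand.

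Ppy only cells differed in Adgrg1 and Gpr180, and from insulin only and Gcg only cells in Gpr142. Adgrg1, a receptor for collagen III (chromosome 8 at 94974751-95014217, plus strand), was at 199 and 190.0 CPM in Ppy only cells and between 117 and 139 in every sum of the other hormone groups, with no overlap. The differences were small: insulin against Ppy was -0.48 (SE 0.12, adjusted p = 0.0131), Gcg against Ppy -0.62 (SE 0.12, adjusted p = 0.00504) and Sst against Ppy -0.69 (SE 0.15, adjusted p = 0.00893). Cells with Gcg and Ppy were at 129.9 and 129 CPM. Gpr180 was at 63.6 and 62.2 CPM with Ppy only and between 30.6 and 40.4 in the other hormone groups. Its log2 differences from Ppy only cells were -0.69 (SE 0.20, adjusted p = 0.0239) for insulin, -0.81 (SE 0.20, adjusted p = 0.0174) for Gcg and -0.91 (SE 0.27, adjusted p = 0.0497) for Sst. In that order, these calls were lost in 2 of 10, 1 of 10 and 7 of 11 alternatives. Gpr142, a tryptophan receptor known to raise insulin release, was at 11.2 and 11.1 CPM with Ppy only, 28.4 and 27.8 with insulin only and 38.1 and 30.8 with Gcg only. Insulin against Ppy was 1.38 (SE 0.34, adjusted p = 0.00953) and Gcg against Ppy 1.64 (SE 0.34, adjusted p = 0.00582). Sst against Ppy did not pass the test for Gpr142. The median Ppy only cell held 28784.5 and 30339.5 UMIs, more than in any other group compared, and the part of depth in these genes was not tested.

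Other calls against Ppy only cells were smaller or sparser. Gpr27 was at 51.6 and 58.6 CPM with Ppy only, below insulin only cells (0.72, SE 0.20, adjusted p = 0.0173). Gpr19, an orphan expressed in brain, was higher with Ppy only, at 28.4 and 27.0 against 14.8 and 9.26 CPM with insulin only (-1.13, SE 0.29, adjusted p = 0.012). Gpr108 was at 90.2 and 114 CPM with Ppy only, and Gcg against Ppy was -0.60 (SE 0.18, adjusted p = 0.0461), a call lost in 4 of 10 alternatives. Adgrf5 was higher with insulin only than with Ppy only (1.94, SE 0.61, adjusted p = 0.0354), beside endothelial marker sums of 206 and 34.5 against 50.7 and 62.7 CPM.

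**Figure D2:**
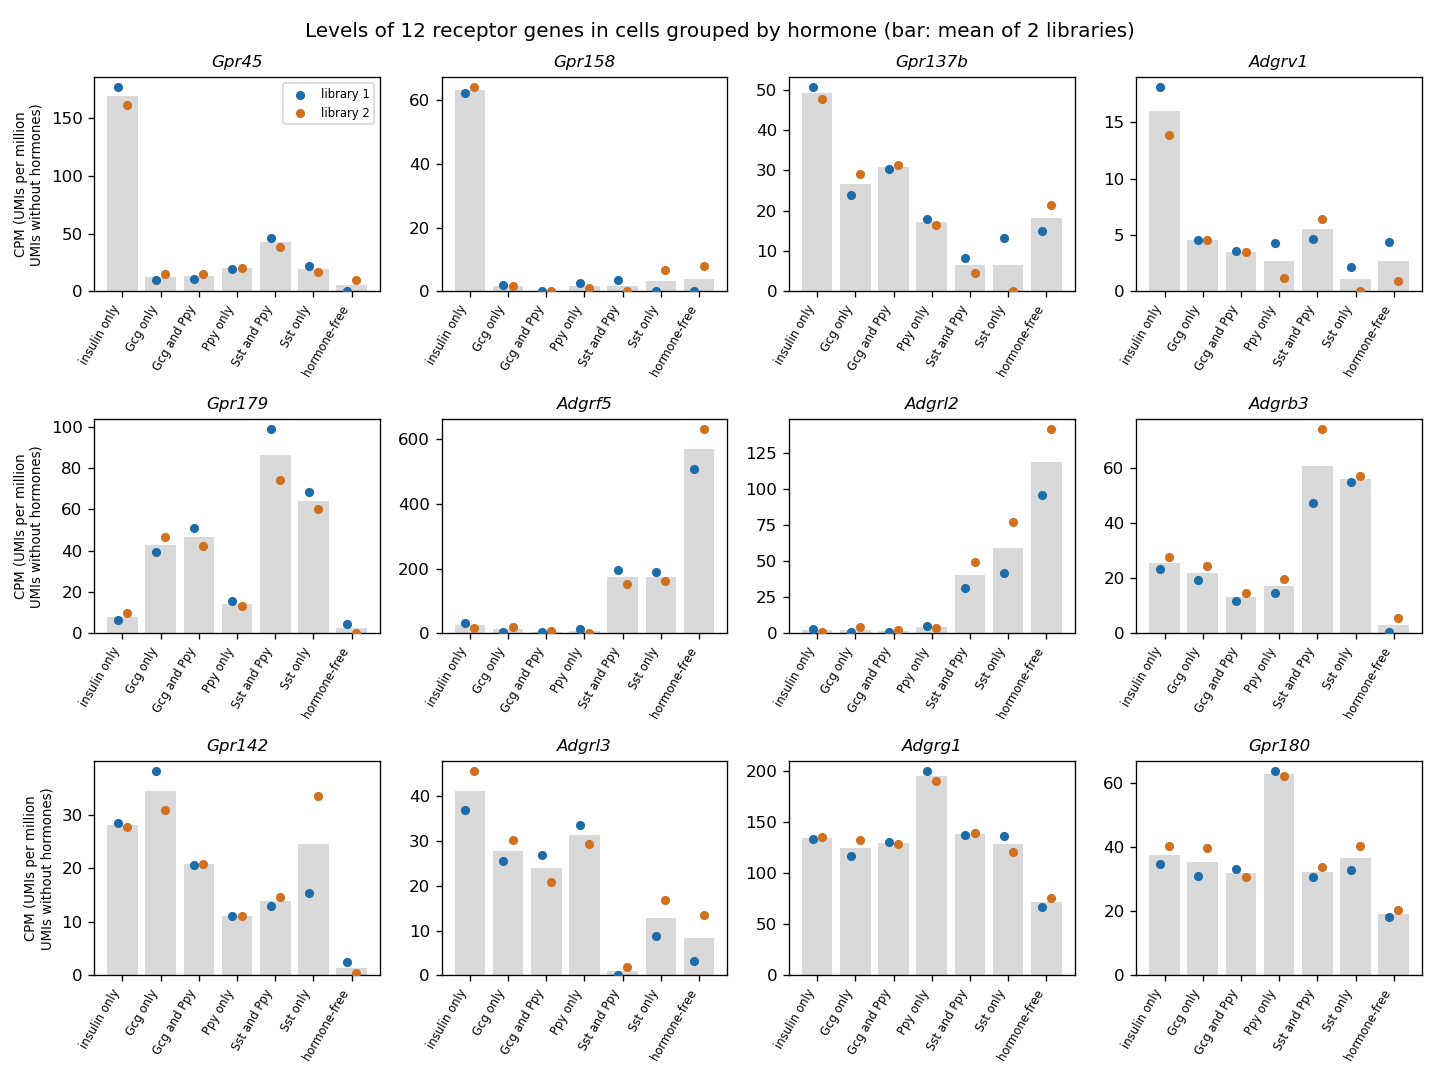
Levels of 12 receptor genes in CPM over UMIs other than the hormones (y axis, own scale for each gene) in 7 hormone groups (x axis); bars are means of 2 libraries and points are the libraries. Gpr45 stands at 176 and 161 and Gpr158 at 62.4 and 64.0 CPM in insulin only cells, Adgrf5 at 189 and 161 CPM in Sst only cells, and Adgrg1 at 199 and 190.0 CPM in Ppy only cells.

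Cells with a second hormone were compared with those that held the first alone. Cells with Gcg and Ppy differed from Gcg only cells in 0 of the 48 receptor genes by edgeR, with 4 at an unadjusted p under 0.05, where 0.0401% of all genes were called. Cells with Sst and Ppy differed from Sst only cells in 0 of 48, with 1 at an unadjusted p under 0.05, where 0.0134% of all genes were called. DESeq2 gave 0 in both, with 2 and 1 at an unadjusted p under 0.05. The difference between the 2 contrasts passed the test in 0 receptor genes and in 0.0134% of all genes. Adgrl3 had 8.79 and 16.8 CPM with Sst only and 0 and 1.83 with Sst and Ppy, and Gpr45 had 22.0 and 16.8 against 46.5 and 38.4, values that did not overlap and did not pass the test. The Sst only sums held 35 and 23 cells, fewer than any other group compared.

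Hormone-free cells were higher than the mean of the 4 single-hormone groups in 21 receptor genes. For 13 of these every single-hormone group held a UMI. The other 8 had 0 UMIs in 1 or more of those groups, and since their fitted fold changes depend on the count added by the fit, bounds are given, with 3 counts over the group as the floor. The UMIs of many of the 21 lay mainly in 1 class of hormone-free cells.

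**Figure D3:**
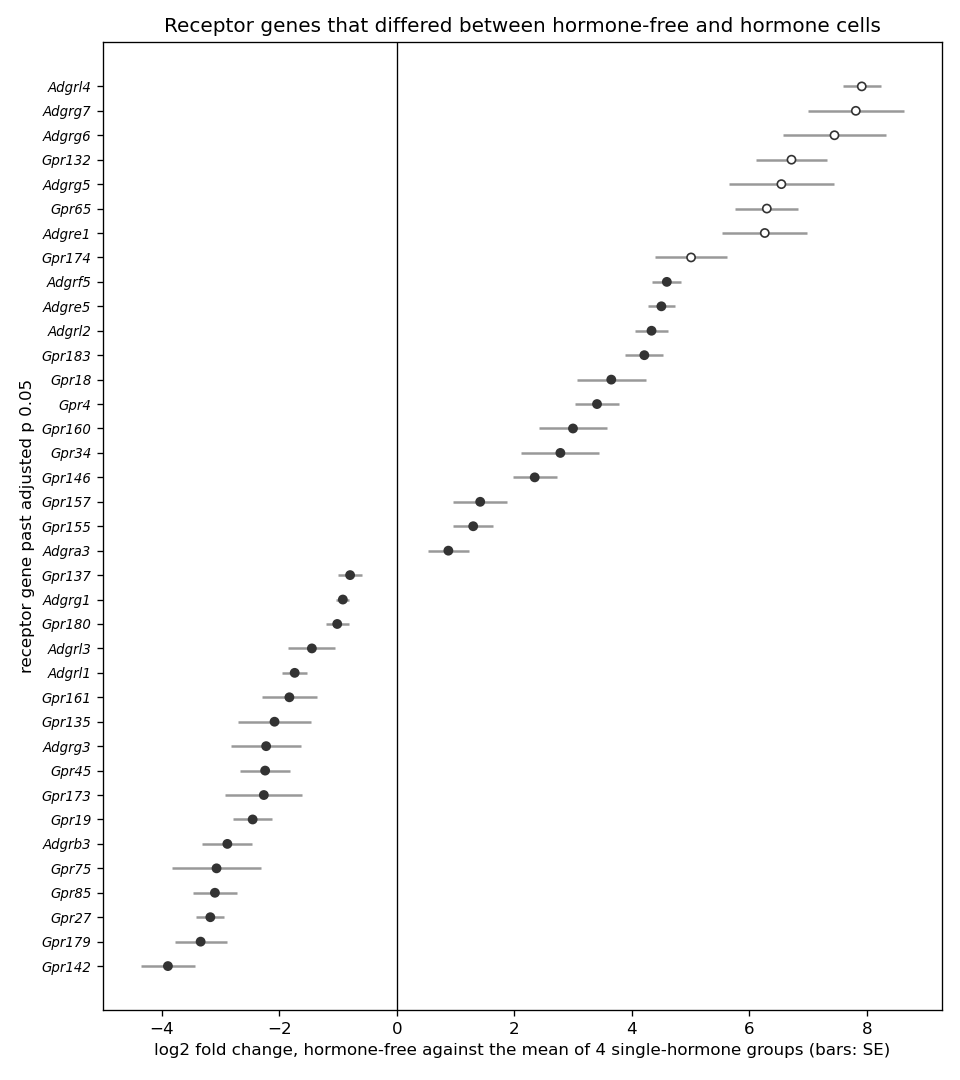
Log2 fold change (x axis) of 37 receptor genes past an adjusted p of 0.05 in hormone-free cells against the mean of the 4 single-hormone groups; points are estimates, bars are SE, and open points are the 8 genes with no UMI in at least 1 of those groups. Adgrf5 (4.60) and Adgre5 (4.50) lead the filled points above 0, and Gpr142 (-3.90) is the lowest.

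Endothelial-like cells held most hormone-free UMIs of Adgrl4, Adgrf5, Adgrl2, Gpr4 and Gpr146, none of which was used to name the class. Adgrl4, also called Eltd1 and known from blood vessels (chromosome 3 at 151437887-151545086, plus strand, its upstream bases printed above), was at 368 and 325 CPM in hormone-free cells and at 0 to 11.2 in every sum with a hormone, at least 328-fold higher than in Ppy only cells. Of its 1287 hormone-free UMIs, 1285 lay in the 60 endothelial-like cells, each of which had at least 1, at 1345 and 874 CPM of that class. Adgrf5 was at 507 and 629 CPM in hormone-free cells (4.60, SE 0.25, adjusted p = 7.02e-10), with 2159 of 2165 UMIs in that class. Adgrl2 was at 96.2 and 141 CPM (4.34, SE 0.28, adjusted p = 4.08e-09), with 416 of 458 UMIs there, 16 in ductal-like and 12 in mesenchymal-like cells. Gpr4, a proton sensor of endothelium, was at 25.8 and 38.0 CPM (3.41, SE 0.38, adjusted p = 1.51e-06), with 115 of 123 UMIs there. Gpr146 was at 21.4 and 36.1 CPM (2.35, SE 0.37, adjusted p = 5.7e-05), with 88 of 112 UMIs there.

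Receptors known from white blood cells differed by class. Adgre1, the antigen F4/80, was at 34.6 and 29.2 CPM in hormone-free cells, at least 57.2-fold higher than in Gcg only and at least 7.90-fold higher than in Sst only cells, and 112 of its 118 UMIs lay in macrophage-like cells. Gpr34, a receptor for lysophosphatidylserine, had 22 of 29 UMIs in them (6.92 and 8.34 CPM in hormone-free cells, 2.78, SE 0.67, adjusted p = 0.00205). Gpr34 had 51 UMIs in all cells, beside 50 for the sparsest gene tested. It could be tested in 8 alternatives and was not tested in the others. Gpr65, a proton sensor of immune cells, was at 44.6 and 39.8 CPM, at least 76.1-fold above Gcg only cells, with 97 of 157 UMIs in macrophage-like and 29 in B cell-like cells. Gpr132, its relative, was at 35.8 and 28.3 CPM, at least 57.2-fold above Gcg only and at least 30.1-fold above Ppy only cells, with 44 of 118 UMIs in T cell-like cells and 43 in cells not placed.

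Gpr183, a receptor for oxysterols that guides B cells, was at 66.0 and 49.6 CPM (4.21, SE 0.33, adjusted p = 2.9e-08), and 94 of 212 UMIs lay in B cell-like cells, at 219.8 and 225 CPM of that class. B cell-like cells also held 42 of 59 UMIs of Gpr174, another lysophosphatidylserine receptor, at 17.0 and 14.8 CPM and at least 28.6-fold above Gcg only cells. They held 35 of 51 UMIs of Gpr18 (15.7 and 12.0 CPM in hormone-free cells, 3.65, SE 0.59, adjusted p = 6.55e-05). Adgrg5 had 19 UMIs in T cell-like and 13 in macrophage-like cells of 52, and was at 8.17 and 18.1 CPM, at least 25.2-fold above Gcg only and at least 3.48-fold above Sst only cells. Adgre5, also called Cd97, was spread over several classes. It was at 116 and 99.1 CPM (4.50, SE 0.23, adjusted p = 4.95e-10), with 189 UMIs in endothelial-like, 72 in B cell-like, 46 in T cell-like and 30 in mesenchymal-like cells of 398.

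Ductal-like cells held 60 of the 61 UMIs of Adgrg7, with 1 or more in 10 of the 20 cells, at 85.4 and 81.4 CPM of that class. It had 0 UMIs in every single-hormone group, and hormone-free cells, at 20.1 and 13.4 CPM, were at least 4.09-fold above Sst only and at least 29.6-fold above Gcg only cells. Adgrg6, also called Gpr126 and needed for myelination by Schwann cells, was at 11.3 and 14.4 CPM, at least 23.7-fold above Gcg only and at least 3.28-fold above Sst only cells, with 20 UMIs in ductal-like cells, 15 in cells not placed and 8 in the 2 cells led by Nos1 and Vip, of 49. Gpr160 was at 11.3 and 12.5 CPM (3.00, SE 0.57, adjusted p = 0.000338), with 15 UMIs in macrophage-like and 15 in ductal-like cells of 45. Gpr155, Gpr157 and Adgra3 rose by 1.30, 1.42 and 0.88, of which Gpr157 and Adgra3 did not pass the F test.

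**Figure D4:**
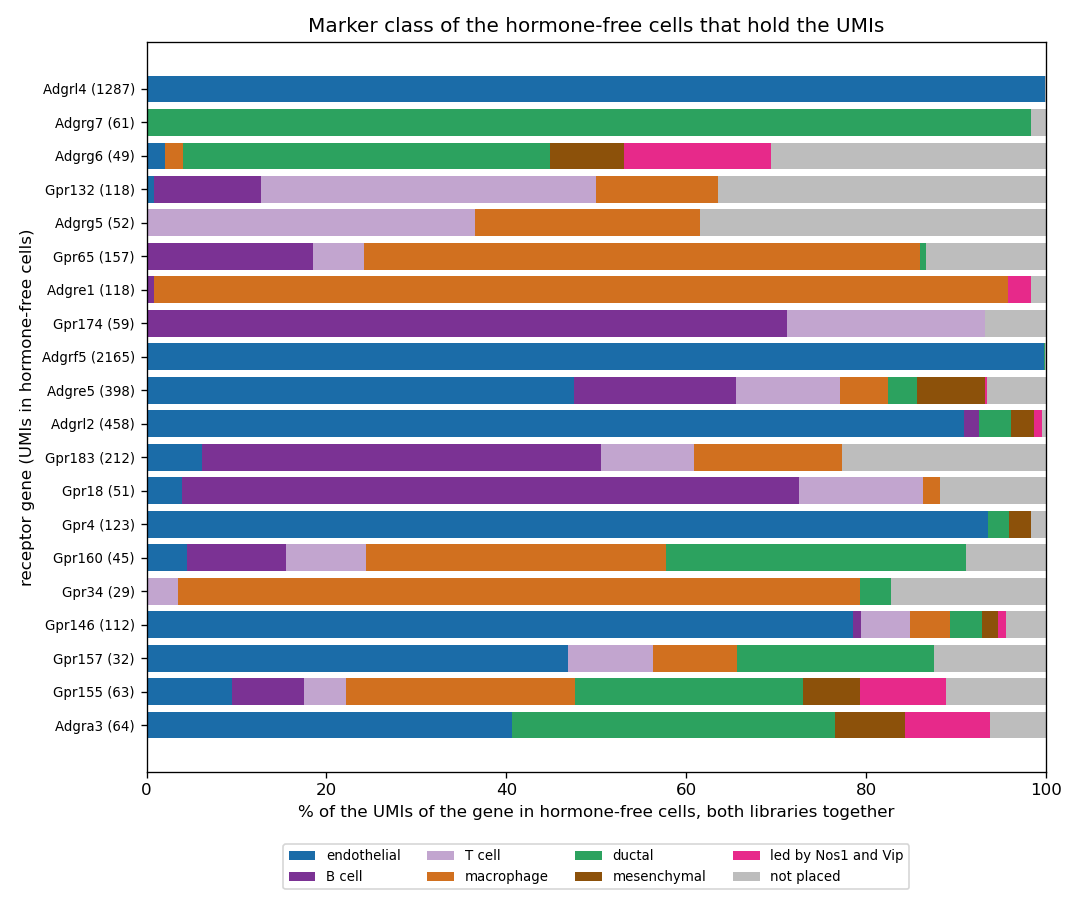
Share of the UMIs of each gene in hormone-free cells (x axis, percent, both libraries together) that lay in each marker class (colour), for 20 of the receptor genes higher in hormone-free cells (y axis). Adgrl4 and Adgrf5 are almost wholly endothelial-like (1285 of 1287 and 2159 of 2165 UMIs), Adgre1 lies mainly in macrophage-like and Adgrg7 in ductal-like cells.

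Hormone-free cells were lower in 17 receptor genes. Gpr142 had the lowest log2 fold change, at 2.51 and 0.463 CPM (-3.90, SE 0.45, adjusted p = 2.58e-06). Gpr179 was at 4.401 and 0.463 CPM (-3.34, SE 0.44, adjusted p = 9.86e-06), and Gpr27 at 3.77 and 9.73 against 51.6 to 90.1 in every sum with a hormone (-3.17, SE 0.24, adjusted p = 2.33e-08). Gpr85 and Gpr173, of the family of Gpr27, were lower as well (-3.10 and -2.26). Adgrl1 was at 34.6 and 76.9 CPM (-1.74, SE 0.22, adjusted p = 5.12e-06), Adgrg1 at 66.6 and 76.0 (-0.92, SE 0.11, adjusted p = 4.35e-06), and Gpr180 at 18.2 and 20.4 (-1.01, SE 0.19, adjusted p = 0.000314). Adgrg1 still had 184 UMIs in endothelial-like cells, at 145 and 151 CPM of that class. Gpr161, a receptor of the cilium that restrains hedgehog signalling, was at 5.03 and 3.24 CPM against 6.705 to 32.3 in the sums with a hormone (-1.83, SE 0.47, adjusted p = 0.00356). Gpr75, Adgrb3, Gpr19, Gpr45, Adgrg3, Gpr135, Adgrl3 and Gpr137 made up the rest, between -3.07 for Gpr75 and -0.79 for Gpr137. In hormone-free cells Gpr75 was at 0.629 and 0.927 CPM, Gpr173 at 1.26 and 0.927, Adgrg3 at 1.89 and 1.39, Gpr135 at 1.26 and 1.85 and Gpr137 at 18.9 and 21.3. With insulin only the same genes were at 7.75 and 2.95, 6.27 and 5.90, 9.60 and 5.47, 3.69 and 4.21 and 40.6 and 44.2 CPM. Gpr75 shares an exon with Asb3 on its own strand, so its reads are uncertain.

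The 2 cells led by Nos1 and Vip carried receptors that were sparse in other hormone-free cells. They held 92 of the 221 hormone-free UMIs of Adgrl1, 27 of 34 of Adgrl3 and 13 of 27 of Gpr27, beside the UMIs of Gpr45 and Gpr158 given above. Among genes too sparse for the test they held 31 of 34 hormone-free UMIs of Gpr22, 20 of 22 of Adgrb1, 12 of 12 of Adgrb2 and 10 of 19 of Adgra1. Adgrb1 and Adgrb2 are brain angiogenesis inhibitors of the family of Adgrb3. Without these 2 cells none of the 38 receptor genes lost its call, and 42 of 49 tested were called. The log2 fold change of hormone-free cells went from -2.24 to -4.53 for Gpr45, from -1.45 to -3.51 for Adgrl3, from -2.88 to -4.76 for Adgrb3 and from -1.74 to -2.34 for Adgrl1.

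Of the 48 genes tested, 7 did not pass the F test: Adgra3, Gpr107, Gpr157, Gpr162, Gpr171, Gpr39 and Gpr89. Gpr107, a Golgi protein, was at 68.3 and 61.1 CPM with insulin only, 68.2 and 63.0 with Gcg only and 50.9 and 49.6 in hormone-free cells (adjusted p = 0.357). Gpr89, a Golgi pH regulator, was between 27.0 and 49.0 CPM in every sum compared (adjusted p = 0.707). Gpr171 was at 38.4 and 7.41 CPM in hormone-free cells, where 39 of 77 UMIs lay in B cell-like cells, and its libraries were far apart (adjusted p = 0.166). Gpr39, a receptor activated by zinc, had 140 UMIs in all cells (adjusted p = 0.277).

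The 38 genes that were not tested had between 3 and 91 UMIs each, and no fold is drawn from them. Those named here were chosen after their values were seen. Gpr182 had 91 UMIs, 37 of them in endothelial-like cells and 27 in a single cell. Gpr82 had 62, with 25 in Gcg only and 8 in insulin only cells. Gpr21 had 47 and shares an exon with Rabgap1 on its own strand, so its reads are uncertain. Gpr35 had 42, with 14 in macrophage-like and 13 in ductal-like cells. Gpr55 had 27, with 27 in hormone-free and 15 in B cell-like cells. Gpr31c, annotated as a transcribed processed pseudogene, had 22, with 21 in macrophage-like cells. Gpr20 had 12, with 11 in mesenchymal-like cells. Adgrf1 had 8, 8 of them in ductal-like cells. Adgrg4 had 9 UMIs, 8 of them in a single Gcg only cell.

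Of 23 listed partners of adhesion receptors, 18 were tested and 17 differed among the 5 groups by the F test, where 66.5% of all genes did. Insulin against Gcg had 5 and 4 called higher and lower (25% of all genes called), insulin against Ppy 4 and 3 (20.2%) and insulin against Sst 1 and 2 (14.5%). Gcg against Sst had 1 and 4 (12.3%), Gcg against Ppy 3 and 3 (9.49%), Sst against Ppy 3 and 1 (9.08%), and hormone-free against the hormone groups 10 and 6 (59.7%). Among the partners of latrophilins, Flrt1 was at 199.97 and 225 CPM with Sst only and 54.5 and 40.0 with Gcg only (Gcg against Sst -2.04, SE 0.36, adjusted p = 0.00111). Tenm3 was at 45.8 and 38.3 CPM with insulin only and 4.95 and 2.83 with Gcg only (3.45, SE 0.47, adjusted p = 5.8e-05), while Tenm4 was lower with insulin only, at 17.7 and 19.0 against 73.1 and 82.2 CPM (-2.04, SE 0.26, adjusted p = 2.62e-05). Cd55, the partner of Adgre5, was at 38.4 and 57.0 CPM in hormone-free cells (4.13, SE 0.38, adjusted p = 1.69e-07). Col3a1, a ligand of Adgrg1, was at 75.4 and 19.9 CPM in hormone-free cells and at most 0.369 in any single-hormone sum. Lama2, a laminin chain, was at 25.9 and 34.7 CPM in Gcg only cells and at 0.369 and 0.421 with insulin only (-5.98, SE 0.66, adjusted p = 1.61e-05).

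Of 7 listed receptor kinases and arrestins, which switch activated receptors off, 7 were tested and 6 differed by the F test, beside 66.5% of all genes. Hormone-free cells were higher in 5 and lower in 1, where 33.4% of all genes were higher and 26.3% lower. Each pair of single-hormone groups differed in 1 to 3, beside 9.08% to 25% of all genes. Grk5 was at 56.5 and 65.3 CPM with insulin only, 17.5 and 18.8 with Gcg only, 7.73 and 5.28 with Ppy only and 6.59 and 6.705 with Sst only. Insulin only cells were higher than Gcg only by 1.78 (SE 0.24, adjusted p = 5.75e-05), than Ppy only by 3.31 (SE 0.31, adjusted p = 2.06e-06) and than Sst only by 3.34 (SE 0.44, adjusted p = 8.28e-05). Arrb1 was at 56.6 and 86.2 CPM in hormone-free cells (4.23, SE 0.26, adjusted p = 2.22e-09), and at 1.11 and 0.842 with insulin only.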

How the data were processed

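Single-cell RNA was measured in 2 libraries of 1 mouse islet preparation. The deposited values are UMI counts per gene and cell barcode, made by the authors with Cytonaut from reads aligned to the mouse genome and assigned to exons, with barcodes kept by the knee rule of UMI-tools. The strand setting of the counting is not given in the sources used here. Cells with at least 200 genes and at most 20% mitochondrial UMIs were kept, which was every barcode, and library sizes left out the 5 hormone genes. Scrublet called 6 cells per library as doublets (0.809% of cells), which were kept. Depth per cell ran from 4704 to 177513 UMIs.

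Counts were summed per library and hormone group (14 sums, 7 residual degrees of freedom, groups of at least 10 cells per library) and fitted with edgeR 4.0.16 (R 4.3.3), with TMM scaling, filterByExpr, the quasi-likelihood test and Benjamini-Hochberg adjustment over 14955 genes. The biological coefficient of variation was 15.4%. An exact permutation test of 2 libraries against 2 cannot go below p = 0.333. Hormone-free cells were placed by 20 or more marker UMIs from at least 3 markers. Python 3.11.15, scanpy 1.11.5 and DESeq2 1.42.0 were also used. Gene positions are those of GENCODE mouse release 21 (GRCm38), which held 85 of the 86 genes, and RefSeq promoters matched 62. Of the 85, 83 were annotated as protein-coding. The genes, lists and groups were chosen with earlier results of these data known. Values are given for the 30 genes with most UMIs and for every gene called by the F test or in the contrasts with a second hormone. Sums with the same replicate number come from the same library. The correlation of their deviations between groups ran from -0.0879 to 0.143, with a median of 0.00722. The alternatives were other hormone thresholds, DESeq2, RLE scaling, no filter, library sizes with the hormones, doublets removed, the top cell of each gene removed, the library as a block, and each library alone. Leaving out the 2 cells led by Nos1 and Vip, and averaging both Sst groups, were added after seeing the data. Some genes counted among the 86, and some markers, are not reported here by name.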

Additional observations from a re-analysis of the deposited data

Results flagged for a closer look

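Some genes of the same naming pattern were listed for 1 library only and so lay outside the 86. Gpr176 had 11 UMIs in 3 cells of library 2, and Gpr63 had 7 UMIs in 6 cells of library 1, both above the 3 counts that a count of 0 allows. The other 6 such genes, Adgrf2, Gpr143, Gpr151, Gpr26, Gpr31b and Gpr37, had at most 2 UMIs each. No group was compared for any of them.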

How the results depend on the processing

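Of 83 calls of receptor genes in the contrasts, 22 were lost under at least 1 alternative with a test. The other 61 were kept wherever the gene was still tested. Without each gene's top cell 80 of the 83 calls could be tested, and with the threshold of 2% 82. Of 843 alternative values, 798 kept their call, 45 lost it and 0 changed direction. DESeq2 lost 19 calls, the hormone threshold of 0.5% lost 9, no filter and the removal of each gene's top cell lost 4 each, the threshold of 2% lost 3, and RLE scaling lost 2. With DESeq2 the number of receptor genes called was 7 for insulin against Gcg, 7 for insulin against Ppy and 3 for Gcg against Ppy. For Gcg against Sst it was 5 with the threshold of 2%, 5 without the top cell, and 7 with both Sst groups averaged, an alternative chosen after seeing the data, under which the share of all genes called rose from 12.3% to 17.7%. The cause was not tested. With the library as a block, 41 genes passed the F test and 2 calls were lost. Hormone-free cells then gave 39 calls, Sst against Ppy 5, and Gcg against Sst 0 higher and 3 lower, and the pairing left the other counts of called receptor genes as they were. Receptor genes at an unadjusted p under 0.05 went from 19 to 16 for insulin against Gcg, from 17 to 16 for insulin against Ppy, from 9 to 7 for Gcg against Ppy, and from 4 to 5 for Gcg and Ppy against Gcg only. Over all genes, the calls for Gcg and Ppy against Gcg only were 6, with 7 under the block, 153 under no filter, 11 with DESeq2 and 14 without the 2 cells led by Nos1 and Vip. For Sst and Ppy against Sst only they were 2, with 66 under no filter and 4 with DESeq2 or without those cells and 0 with the threshold of 2%. With 1 library left out there was no test. The log2 fold changes that moved by at least the SE of the main fit were 36 of 83 without replicate 1 and 30 of 83 without replicate 2. The 2 libraries come from 1 preparation. The 38 receptor genes that were not tested had 3 to 91 UMIs, and no receptor gene under 50 UMIs was tested.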
